A study of Mus musculus with 15 samples.

Results

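The 15 thoracic aortas of the series were ranked by Cd79a, which encodes the signalling chain CD79A of the B cell receptor, in CPM (the count divided by the library total and multiplied by 1000000). The 5 aortas with the highest Cd79a (Cd79a-rich) were set against the 5 with the lowest (Cd79a-poor), and the other 5 formed a middle set, so the 10 aortas compared were chosen by their measured Cd79a level. Of 15134 other genes tested, 0 (0%) passed an adjusted p of 0.05 in edgeR's quasi-likelihood test, and DESeq2 and limma-voom also called 0, while 225 (1.49%) had an unadjusted p under 0.05 in edgeR. Leading genes were sought among those in no B cell list with a mean of at least 1 CPM, leaving out predicted genes. Among these, the smallest p-values on the high side belonged to platelet and leukocyte genes. Itga2b, Itgal, Nrgn, Cd84 and Tubb1 had levels 1.87-fold to 4.06-fold those of Cd79a-poor aortas. On the low side, fitted differences in the same selection were small. The 5 genes of smallest p there had 0.684 to 0.916 times the level of Cd79a-poor aortas.

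B cells carry an antibody on their surface, the B cell receptor, which signals into the cell through CD79A and CD79B. CD22 damps that signal, CD20 (encoded by Ms4a1) is a membrane protein of mature B cells, and Pax5 and Ebf1 set up the B cell programme. In and around the mouse aorta, B cells are known from the adventitia, the surrounding fat and nearby lymph nodes, and they also circulate in the blood that a vessel holds.

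All aortas came from adult male C57BL/6 wild-type mice of 10 to 12 weeks, and polyadenylated RNA was sequenced. Mice had received celecoxib at 30 mg/kg, rofecoxib at 10 mg/kg (both selective inhibitors of cyclooxygenase-2) or the PEG-400 vehicle, in 100 µL by gavage, and were killed 6 h later at Zeitgeber hour 11. Each treatment had 5 libraries, numbered 1 to 5, and libraries were prepared over several days. The labels do not assign days to libraries. A preparation batch therefore cannot be told apart from the sets. The Cd79a-rich set held 1 celecoxib, 2 rofecoxib and 2 vehicle aortas, against 2 celecoxib, 1 rofecoxib and 2 vehicle aortas in the Cd79a-poor set. The deposited counts of each library summed to between 30937046 and 30967115. Totals this alike may come from a common scaling before deposit, so sequencing depth cannot be compared between libraries. The label of the tissue was borne out by 14 smooth muscle genes such as Acta2 and Myh11, which together took 54453 to 57850 CPM in Cd79a-rich aortas, against 51825 to 63938 CPM in Cd79a-poor aortas.

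The values that formed the sets were small. In Cd79a-rich aortas, Cd79a had 18 counts in rofecoxib 1, 15 in rofecoxib 3, 12 in celecoxib 1, 11 in vehicle 5 and 9 in vehicle 1. In Cd79a-poor aortas, it had 5 counts in vehicle 4, 4 each in celecoxib 4, celecoxib 3 and rofecoxib 2, and 1 in vehicle 2. Being the basis of the sets, these values are a description and were not tested. Their means were 0.420 ± 0.114 CPM in Cd79a-rich aortas and 0.116 ± 0.0490 CPM in Cd79a-poor aortas (SD, n = 5 each), and their sums 65 counts in Cd79a-rich and 18 in Cd79a-poor aortas.

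The edges of the sets lay within counting error. The lowest Cd79a-rich aorta had 9 counts and the highest middle aortas 8, with exact 95% Poisson intervals of 4.12 to 17.1 and 3.45 to 15.8 counts. The highest Cd79a-poor aorta had 5 counts (1.62 to 11.7) and the lowest middle aorta 6 (2.20 to 13.1). Even the top aorta, with 18 counts (10.7 to 28.4), and the bottom one, with 1 count (0.0253 to 5.57), rest on few counts. Over all 15 aortas the variance of the counts was 2.58 times their mean of 7.93. These intervals cover counting error only, since reads without molecular identifiers are not independent molecules. In bulk tissue, fewer B cells and less of a transcript per B cell cannot be told apart.

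**Figure D1:**
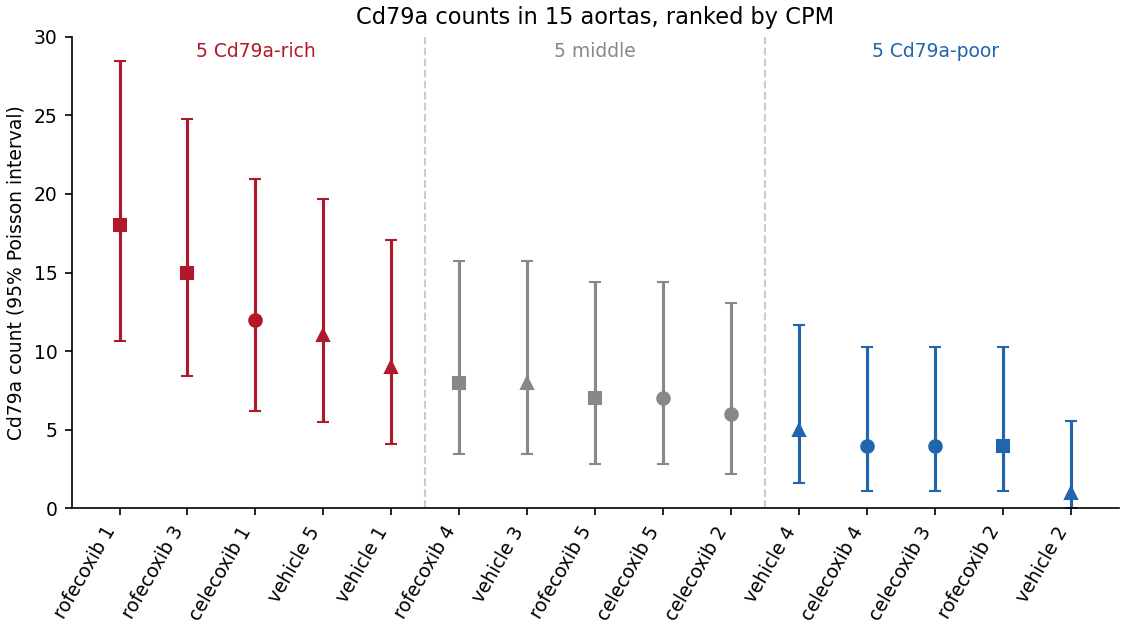
Cd79a count (y axis, linear) in each of 15 aortas, ordered by Cd79a CPM, with exact 95% Poisson intervals as bars. Circles are celecoxib, squares rofecoxib and triangles vehicle aortas. Intervals of neighbouring aortas overlap at both edges of the middle set, where 9 counts stand beside 8 and 6 beside 5.

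Cd79a lies on chromosome 7 (25682198 to 25687418 in the mm9 coordinates of the deposited table). Its promoter is shown because the whole comparison rests on this gene. RefSeq gives the 250 bases before and 50 bases after its start at chr7:24897247-24897546 on the plus strand of GRCm38.p6, a later build than that of the counts. Searched on both strands were the octamer ATGCAAAT, the GATA motif AGATAA and the ETS motif GGAAGT, whose letters were chosen after sequences had been seen. Capitals mark the single match, an ETS motif whose first base is at -54 from the start.
Cd79a: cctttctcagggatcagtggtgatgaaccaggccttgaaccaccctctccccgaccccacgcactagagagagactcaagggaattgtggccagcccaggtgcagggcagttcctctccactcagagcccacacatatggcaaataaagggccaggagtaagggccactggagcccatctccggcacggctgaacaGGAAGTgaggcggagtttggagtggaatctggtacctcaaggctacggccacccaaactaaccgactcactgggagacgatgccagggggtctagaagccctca
GGAAGT or its complement occurred in 23.8% of 32851 promoters of this length, AGATAA in 11.2% and ATGCAAAT in 1.74%, so the match is a description of the letters and not a mapped site.

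Other B cell genes followed Cd79a in part. Of 60 B cell genes found in the table, 47 had a higher summed count in Cd79a-rich than in Cd79a-poor aortas and 11 a lower one, counting Cd79a apart. Over all 15134 tested genes, 7947 had a higher summed count in Cd79a-rich aortas and 7095 a lower one. Only 32 of the 60 held enough counts to be tested, so these shares are over unlike sets. The other genes of the 60 cannot be read as unchanged. Among the 32, the log2 fold change was positive for 26 and negative for 6, with a median of 0.21, where 51.5% of all tested genes were positive and their median was 0.00. At an unadjusted p under 0.05 there were 3 higher (Lyn, Cd37 and Cd52) and 0 lower, where 0.912% of all tested genes were higher at that threshold and 0.575% lower. None was called at an adjusted p of 0.05 by edgeR's test. Some of these genes share cells with the one that ranked the aortas, but tested members such as Ebf1 are also made by other cells. In vehicle aortas Cd81 averaged 423 CPM and Ebf1 96.0 CPM, against 0.220 CPM for Cd79a. Cd79b, Cd22, Ms4a1 and Pax5 failed the filter on low counts. The counts over the 32 therefore cannot be read as B cell content.

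The partner chain CD79B and the co-receptors gave a mixed picture. Cd79b had 19, 9, 19, 4 and 7 counts in Cd79a-rich aortas (rofecoxib 1, rofecoxib 3, celecoxib 1, vehicle 5 and vehicle 1, the order used from here on). In Cd79a-poor aortas it had 3, 12, 1, 0 and 3 counts (vehicle 4, celecoxib 4, celecoxib 3, rofecoxib 2 and vehicle 2, likewise kept from here on). The sets overlapped, because celecoxib 4 was poor in Cd79a and held more Cd79b than 3 of the Cd79a-rich aortas.

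Cd22, the inhibitory co-receptor, had 12, 5, 19, 4 and 13 counts in Cd79a-rich aortas, against 4, 9, 4, 4 and 3 in Cd79a-poor aortas. As with Cd79b, vehicle 5 was low among the Cd79a-rich aortas and celecoxib 4 high among the Cd79a-poor ones.

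Ms4a1, the CD20 gene, was the only one of the 60 whose sets did not overlap. It had 14, 6, 12, 7 and 10 counts in Cd79a-rich aortas, against 4, 2, 2, 3 and 0 in Cd79a-poor aortas. Among the 23981 rows with any count, 26 (0.108%) had every Cd79a-rich aorta above every Cd79a-poor aorta. Ms4a1 failed the filter on low counts. In a fit without the filter its log2 fold change was 2.10 with an unadjusted p of 0.00221 and an adjusted p of 0.995 (edgeR).

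Immunoglobulin genes did not separate the sets. Ighm, the heavy chain of IgM, had 354, 260, 445, 195 and 478 counts in Cd79a-rich aortas, against 252, 241, 191, 165 and 454 in Cd79a-poor aortas. Vehicle 2, which had a single Cd79a count, held nearly as much Ighm as the highest Cd79a-rich aorta. The log2 fold change was 0.41 ± 0.35 (SE, unadjusted p = 0.259, edgeR), and 0.71 without vehicle 2. Igkc, the kappa light chain, summed to 44 counts in each set, with 8, 7, 18, 2 and 9 in Cd79a-rich aortas and 6, 20, 13, 2 and 3 in Cd79a-poor aortas. The lambda chains Iglc2 and Iglc3, close copies of each other whose reads may be split, summed to 18 and 11 counts in Cd79a-rich aortas, against 5 and 1 in Cd79a-poor aortas.

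**Figure D2:**
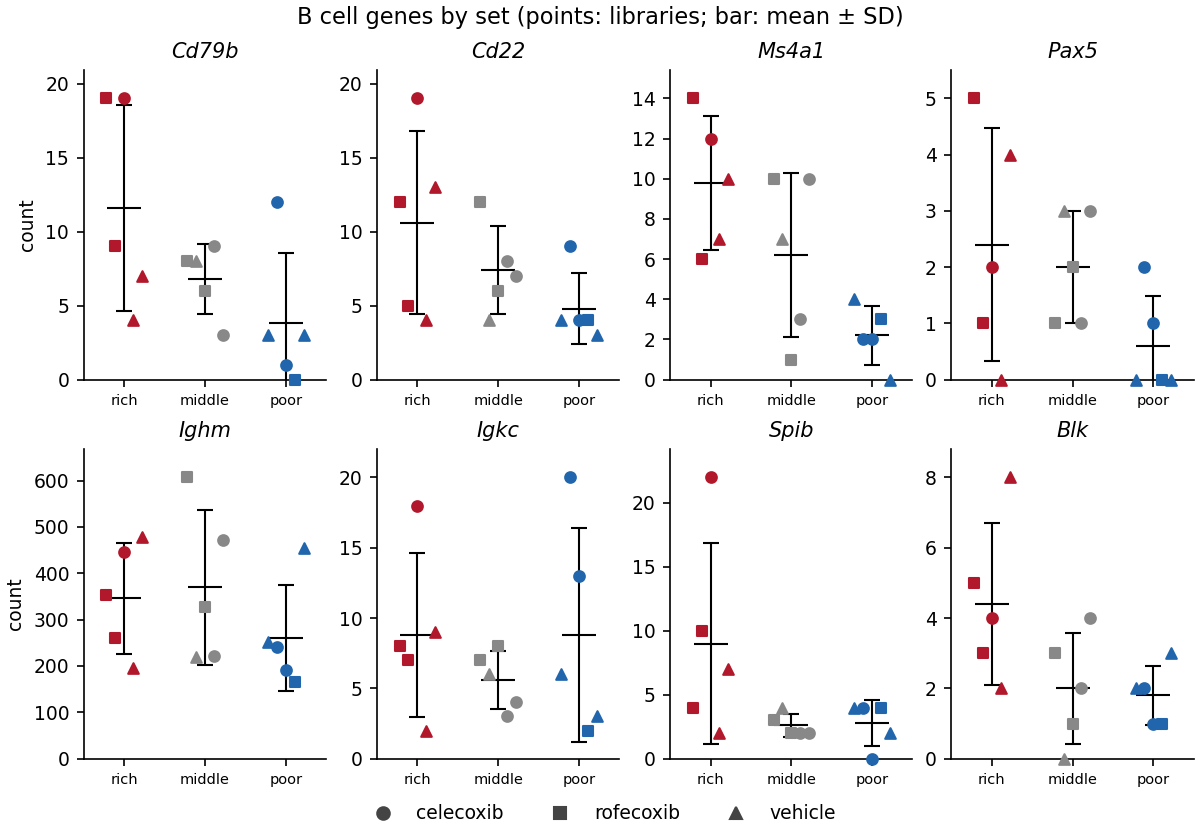
Counts of B cell genes (y axes, linear) in Cd79a-rich, middle and Cd79a-poor aortas. Points are libraries (circles celecoxib, squares rofecoxib, triangles vehicle), horizontal marks the mean and bars the SD (n = 5 each). For Ms4a1 the Cd79a-rich aortas, with 6 to 14 counts, stand above the Cd79a-poor ones with 0 to 4, while the sets overlap for Igkc, with 2 to 18 counts in Cd79a-rich and 2 to 20 in Cd79a-poor aortas.

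Of 9 tested genes of signalling behind the receptor, 7 had positive and 2 negative log2 fold changes, with a median of 0.07. That median lay between -0.02, without celecoxib 3, and 0.40, without celecoxib 4, and was 0.27 without vehicle 4 and 0.22 without celecoxib 1. Lyn, a kinase that phosphorylates CD79A and also works in myeloid cells, had 281, 227, 222, 190 and 281 counts in Cd79a-rich aortas, against 243, 214, 118, 121 and 166 in Cd79a-poor aortas. Its log2 fold change was 0.48 ± 0.18 (SE, unadjusted p = 0.0161, edgeR). The B cell kinase Blk, too low to test, summed to 22 counts in Cd79a-rich and 9 in Cd79a-poor aortas, and the kinase Btk had a log2 fold change of 0.54 (unadjusted p = 0.121, edgeR).

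Of the transcription factors, Pax5, the factor that commits cells to the B lineage, was at the limit of detection, with 5, 1, 2, 0 and 4 counts in Cd79a-rich aortas, against 0, 2, 1, 0 and 0 in Cd79a-poor aortas. Spib, an ETS factor of mature B cells, had 4, 10, 22, 2 and 7 counts in Cd79a-rich aortas, against 4, 4, 0, 4 and 2 in Cd79a-poor aortas. Pou2af1, the coactivator of octamer factors, summed to 26 counts in Cd79a-rich and 9 in Cd79a-poor aortas. Their levels overlapped between the sets. The 5 tested factors (Ebf1, Bach2, Irf8, Ciita and Id3) all had positive log2 fold changes, from 0.08 to 0.98, with none at an unadjusted p under 0.05. Ebf1 and Id3 are also made by stromal and vascular cells.

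Of 10 tested surface and survival receptors, 8 had positive and 2 negative log2 fold changes, with a median of 0.13 that was 0.07 without rofecoxib 1 or rofecoxib 2 and 0.25 without vehicle 4. Cd37, a tetraspanin of B cells and other leukocytes, had 80, 39, 56, 38 and 96 counts in Cd79a-rich aortas, against 58, 45, 18, 35 and 35 in Cd79a-poor aortas (log2 fold change 0.69 ± 0.31 SE, unadjusted p = 0.0418, edgeR). Cd52, a small surface protein of lymphocytes and monocytes, had 50, 19, 26, 18 and 111 counts in Cd79a-rich aortas, against 34, 28, 6, 5 and 13 in Cd79a-poor aortas. In both genes vehicle 1 was highest and the sets overlapped. The homing receptors Cxcr5 and Ccr7 were too low to test and summed to 27 and 28 counts in Cd79a-rich aortas, against 11 and 8 in Cd79a-poor aortas. Cd24a and the receptor Tnfrsf13b leaned the other way, with log2 fold changes of -0.25 and -0.15.

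Of 8 tested plasma cell genes, 4 were positive and 4 negative, with a median of 0.03, and the abundant Xbp1 and Sdc1 had log2 fold changes of -0.03 and 0.14. The plasma cell median lay between -0.05 and 0.10 as single libraries were left out. At an unadjusted p under 0.05 (edgeR), 1 of the 8 was lower, where 0.575% of all tested genes were. The 6 tested germinal centre genes were 3 positive and 3 negative. At an unadjusted p under 0.05 (edgeR) 1 was higher, where 0.912% of all tested genes were. Among the 9 with a row in the deposited table, not all of them tested, 6 had a higher summed count in Cd79a-rich aortas and 2 a lower one. Over all 15134 tested genes these numbers were 7947 and 7095. Of 11 early B cell genes in the table, 7 had a higher summed count in Cd79a-rich aortas and 1 a lower one. For all tested genes the numbers were again 7947 and 7095. Only 3 of the 11 (Cd93, Erg and Sox4) were tested, all positive, with a median of 0.10. Cd93 averaged 54.5 CPM in vehicle aortas. Vpreb1, Igll1, Rag1, Rag2 and Dntt did not pass the filter on low counts, so the 3 cannot be read as early B cells. Il7r, of early lymphocytes, had 3 to 13 counts in Cd79a-rich and 3 to 9 in Cd79a-poor aortas.

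Genes of lymph node structure were high in single aortas. Glycam1, a ligand of high endothelial venules of lymph nodes, had 13 counts in celecoxib 1 and 0 in the other 14 aortas. Madcam1, another vessel ligand for lymphocytes, had 6 counts in celecoxib 1 and 0 to 2 elsewhere. Cxcl13, which draws B cells into follicles, had 25, 11, 100, 29 and 6 counts in Cd79a-rich aortas, against 85, 27, 21, 6 and 5 in Cd79a-poor aortas, so its top values lay in both sets. Among 8 tested genes of lymphoid stroma the median log2 fold change was 0.18, with 6 positive and 2 negative, and it was -0.06 without celecoxib 1, the aorta with Glycam1. The 9 lymphatic endothelial genes had a median of 0.02, which was -0.05 without celecoxib 1 and 0.26 without vehicle 4.

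T cell genes were also close to the limit of detection. Of 25 in the table, 20 had a higher summed count in Cd79a-rich aortas and 3 a lower one. Over all 15134 tested genes these numbers were 7947 and 7095. These shares are over unlike sets, since only 6 T cell genes held enough counts to be tested. Their median log2 fold change was 0.42, with 5 positive. Lck, the kinase of the T cell receptor, had 14, 14, 13, 8 and 16 counts in Cd79a-rich aortas, against 12, 10, 8, 3 and 6 in Cd79a-poor aortas (log2 fold change 0.73 ± 0.32 SE, unadjusted p = 0.0364, edgeR). The summed level of the list was 3.65 to 7.34 CPM in Cd79a-rich aortas and 2.65 to 5.56 CPM in Cd79a-poor aortas, which overlap. With a filter at a mean of 1 CPM the median was -0.15.

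Of the 225 genes at an unadjusted p under 0.05, 138 were higher and 87 lower, and every adjusted p was near 1.0. All Cd79a-rich aortas lay above all Cd79a-poor aortas for 17 genes (0.112%), and below them for 14 (0.0925%). The counts of Itga2b, the platelet integrin chain that binds fibrinogen (chromosome 11, 102314409 to 102331638, mm9), were 354, 183, 485, 355 and 195 in Cd79a-rich aortas, against 170, 97, 133, 81 and 190 in Cd79a-poor aortas. Only rofecoxib 3, with 183, fell under the top Cd79a-poor value of 190. The means were 10.2 ± 4.08 CPM in Cd79a-rich and 4.34 ± 1.5 CPM in Cd79a-poor aortas (SD, n = 5 each), with a log2 fold change of 1.24 ± 0.29 (SE, unadjusted p = 0.000699, adjusted p = 1.0, edgeR).

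Tubb1, the platelet beta-tubulin (chromosome 2, 174275994 to 174283585, mm9), had 84, 36, 101, 92 and 36 counts in Cd79a-rich aortas, against 20, 2, 16, 6 and 42 in Cd79a-poor aortas. Vehicle 2 alone made the sets overlap. The log2 fold change was 2.02 ± 0.57 (SE, unadjusted p = 0.00320, edgeR). Nrgn, a calmodulin-binding protein of neurons that platelets also carry, had 549, 306, 531, 362 and 298 counts in Cd79a-rich aortas, against 249, 178, 179, 130 and 361 in Cd79a-poor aortas. It had a log2 fold change of 0.90 ± 0.25 (SE). Here too vehicle 2 was the Cd79a-poor aorta that reached into the other set.

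The platelet list as a whole leaned the same way in most members. Of 7 tested among 8 in the table, 6 were positive and 1 negative. At an unadjusted p under 0.05 (edgeR) 4 were higher, where 0.912% of all tested genes were. The median log2 fold change was 1.24, which is the value of Itga2b, already named for its small p. That median stayed between 1.01 and 1.40 when any library was left out. With sets ranked by Cd79b in place of Cd79a it was 0.77, and with a filter at a mean of 1 CPM it was 0.42. Ppbp, a platelet chemokine, had 351, 123, 378, 286 and 110 counts in Cd79a-rich aortas, against 109, 22, 49, 22 and 194 in Cd79a-poor aortas. Gp9, of the receptor for von Willebrand factor, had 47, 19, 81, 66 and 26 counts in Cd79a-rich aortas, against 16, 2, 14, 3 and 41 in Cd79a-poor aortas. In both, celecoxib 1, rofecoxib 1 and vehicle 5 stood highest among the aortas compared, and vehicle 2 was the one high Cd79a-poor aorta.

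Treml1, a receptor of platelet granules, had a log2 fold change of 1.71 ± 0.66 (SE, unadjusted p = 0.0211, edgeR) and Pf4, a platelet chemokine that other myeloid cells also make, one of 0.41 ± 0.27 (unadjusted p = 0.156, edgeR). Itgb3, the partner of Itga2b, which vascular cells also make, had a log2 fold change of -0.01. Itgb3 carries most of the summed level of the list, which was 233 to 277 CPM in Cd79a-rich and 189 to 277 CPM in Cd79a-poor aortas. The highest summed level of the series, 324 CPM, was in vehicle 3 of the middle set.

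Promoters of 3 platelet genes are shown as examples, since among the aortas compared these genes had their highest counts in the same ones. They are RefSeq sequences of GRCm38.p6: Itga2b at chr11:102469834-102470133 on the minus strand, Ppbp at chr5:90768268-90768567 and Tubb1 at chr2:174450345-174450644, both on the plus strand. Capitals mark ETS motifs, read here as the complement ACTTCC, with the first base at -26 in Itga2b and -57 in Ppbp.
Itga2b: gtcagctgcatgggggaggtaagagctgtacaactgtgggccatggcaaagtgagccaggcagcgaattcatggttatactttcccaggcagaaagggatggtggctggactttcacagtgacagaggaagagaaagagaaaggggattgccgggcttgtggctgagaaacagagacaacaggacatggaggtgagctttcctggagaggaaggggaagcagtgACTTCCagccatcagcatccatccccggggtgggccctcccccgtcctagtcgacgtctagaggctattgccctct
Ppbp: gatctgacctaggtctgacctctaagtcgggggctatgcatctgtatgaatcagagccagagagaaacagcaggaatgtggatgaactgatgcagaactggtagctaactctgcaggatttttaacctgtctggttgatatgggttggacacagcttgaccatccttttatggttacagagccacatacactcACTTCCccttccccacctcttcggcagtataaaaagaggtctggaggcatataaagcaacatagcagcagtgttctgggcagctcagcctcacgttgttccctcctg
Tubb1: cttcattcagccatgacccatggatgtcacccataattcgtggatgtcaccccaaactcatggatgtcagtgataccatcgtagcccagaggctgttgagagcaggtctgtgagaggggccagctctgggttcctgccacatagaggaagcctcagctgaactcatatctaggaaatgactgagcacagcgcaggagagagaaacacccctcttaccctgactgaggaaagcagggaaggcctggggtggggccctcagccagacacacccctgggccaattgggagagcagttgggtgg
No ETS, GATA or octamer letters of the kind searched lie in the Tubb1 window, which says nothing of the factors that act there. Of 10 genes looked for, 8 had a promoter entry. Gp9 and Nrgn, highest in the same aortas, had entries with 1 ETS match each (first base at -240 and -130) and are not printed.

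**Figure D3:**
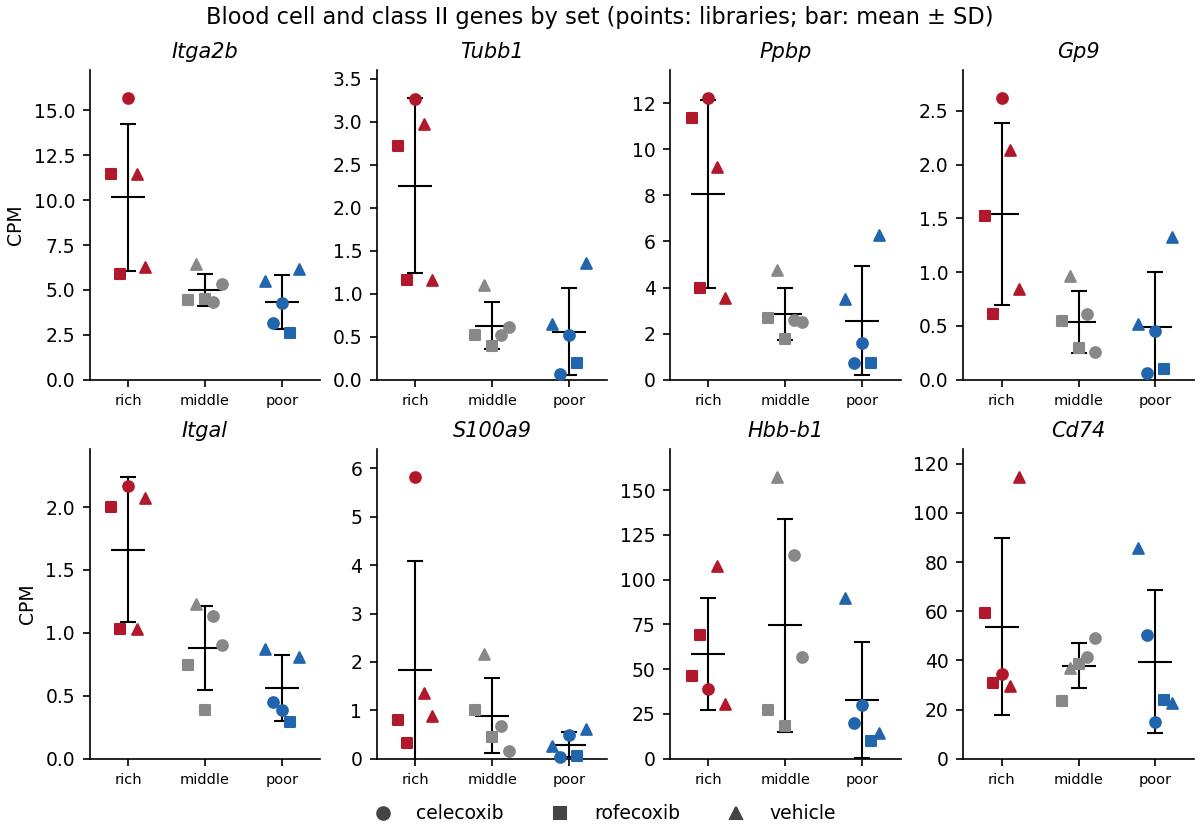
CPM (y axes, linear) of platelet, leukocyte, red cell and class II genes in Cd79a-rich, middle and Cd79a-poor aortas. Points are libraries (circles celecoxib, squares rofecoxib, triangles vehicle), horizontal marks the mean and bars the SD (n = 5 each). Itga2b averaged 10.2 CPM in Cd79a-rich and 4.34 CPM in Cd79a-poor aortas, and Itgal is the 1 of these 8 genes whose 2 sets do not overlap.

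Itgal, the alpha chain of the integrin LFA-1 of lymphocytes and other leukocytes (chromosome 7, 134439572 to 134478853, mm9), had 62, 32, 67, 32 and 64 counts in Cd79a-rich aortas, against 27, 14, 12, 9 and 25 in Cd79a-poor aortas. The sets did not overlap, and the log2 fold change was 1.56 ± 0.37 (SE, unadjusted p = 0.000765, adjusted p = 1.0, edgeR). Cd84, an adhesion receptor shared by platelets, B cells and myeloid cells, had 80, 31, 59, 44 and 140 counts in Cd79a-rich aortas, against 37, 27, 33, 29 and 32 in Cd79a-poor aortas. Its log2 fold change of 1.16 was 0.76 without vehicle 1.

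Among the 17 genes with every Cd79a-rich aorta on top, 3 more were singled out after their values were seen. Acap1, a membrane trafficking protein, had 29, 19, 18, 25 and 33 counts in Cd79a-rich aortas, against 16, 16, 5, 10 and 9 in Cd79a-poor aortas. Parvg, the parvin of blood cells, had 32, 23, 21, 20 and 23 counts in Cd79a-rich aortas, against 19, 11, 13, 12 and 3 in Cd79a-poor aortas. Bhlhe40, a transcriptional repressor linked to the clock and to immune cells, had 1484, 1421, 2956, 1501 and 1954 counts in Cd79a-rich aortas, against 1220, 1063, 768, 1114 and 1349 in Cd79a-poor aortas. Acap1 and Parvg were near 2-fold apart, with log2 fold changes of 1.14 ± 0.36 and 1.03 ± 0.34 (SE), and Bhlhe40 had one of 0.76 ± 0.27.

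Neutrophil genes had the highest list median, and celecoxib 1 carried much of it. The 4 tested members, of 13 in the table, were all higher at an unadjusted p under 0.05 (edgeR), where 0.912% of all tested genes were. Their median log2 fold change was 2.02, and 0.97 without celecoxib 1. S100a9, an abundant calcium-binding protein of neutrophils, had 25, 10, 180, 42 and 27 counts in Cd79a-rich aortas, against 8, 1, 15, 2 and 19 in Cd79a-poor aortas. Its partner S100a8 had 14, 6, 136, 22 and 12 counts in Cd79a-rich aortas, against 9, 3, 6, 4 and 9 in Cd79a-poor aortas. The sets overlapped in both genes, and outside celecoxib 1 the Cd79a-rich aortas held at most 42 and 22 counts. The summed level of the list was 4.91 to 21.1 CPM in Cd79a-rich and 3.17 to 5.40 CPM in Cd79a-poor aortas.

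Haemoglobin transcripts varied widely within both sets. Hbb-b1, a beta-globin whose near-identical copy may share its reads, had 1426, 2139, 1212, 3336 and 937 counts in Cd79a-rich aortas, against 2772, 615, 933, 311 and 442 in Cd79a-poor aortas. Vehicle 5 and vehicle 4, of opposite sets, were the highest of the 10. The 4 haemoglobin rows summed to 61.2 to 231 CPM in Cd79a-rich and 20.2 to 183 CPM in Cd79a-poor aortas. The 6 tested red cell genes, of 10 in the table, had a median log2 fold change of 0.88, which was 1.68 without vehicle 4 and 0.52 without vehicle 5. The highest haemoglobin level of the series, 332 CPM, was in vehicle 3 of the middle set. How far blood in the vessel bears on the platelet, neutrophil and B cell values was not tested.

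Antigen presentation genes leaned high, again through few aortas. The 8 tested genes of major histocompatibility complex class II, of 11 in the table, were all positive, with a median log2 fold change of 0.56 and 0 at an unadjusted p under 0.05. Cd74, the invariant chain that B cells, dendritic cells and macrophages share, had 1839, 950, 1071, 914 and 3541 counts in Cd79a-rich aortas, against 2651, 1553, 458, 744 and 696 in Cd79a-poor aortas. Vehicle 1 and vehicle 4, of opposite sets, were highest. The list median was 0.06 without vehicle 1 and 0.98 without vehicle 4, and the log2 fold change of Cd74 was 0.45, or -0.017 without vehicle 1.

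Of 18 tested macrophage genes, 6 were positive and 12 negative, with a median log2 fold change of -0.06 that was 0.13 without vehicle 4 and -0.19 without celecoxib 3, and Lyz2 and Csf1r had values of 0.28 and 0.04. The 10 tested dendritic cell genes had a median of 0.19, which was 0.45 without vehicle 4 and 0.12 without celecoxib 1 or vehicle 1. Mast cell genes leaned low, with 6 of 7 negative and a median of -0.41, which was -0.86 without rofecoxib 1, and 0.10 with the sets ranked by Ms4a1.

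Nerve genes were on the low side. All 16 sympathetic neuron genes and all 11 Schwann cell genes were negative, with median log2 fold changes of -1.90 and -0.85 and 0 at an unadjusted p under 0.05. Th, the first enzyme of noradrenaline synthesis, had 3, 715, 3, 78 and 0 counts in Cd79a-rich aortas, against 1017, 2725, 4, 10 and 15 in Cd79a-poor aortas. High values belonged to rofecoxib 3, vehicle 4 and celecoxib 4, and the other 7 aortas had at most 78. The sympathetic median was -0.54 without celecoxib 4 and -4.38 without rofecoxib 3. It was 1.13 with the sets ranked by Cd79b and 3.50 for the 3 highest against the 3 lowest aortas, so its sign followed which aortas entered. The Schwann cell median was -0.13 without celecoxib 4 and 0.52 with the sets ranked by Cd79b.

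Fat genes leaned the other way. All 15 tested brown fat genes and 15 of 16 white fat genes were positive, with medians of 0.53 and 0.26 and none at an unadjusted p under 0.05. Ucp1, which uncouples respiration in brown fat, had 6721, 5566, 4294, 30339 and 8525 counts in Cd79a-rich aortas, against 13987, 7576, 2237, 1825 and 5027 in Cd79a-poor aortas. Vehicle 5 was far above the rest, and the brown fat median was 0.17 without it. Leaving out vehicle 5 or celecoxib 3 gave a white fat median of 0.05 or 0.08, and leaving out vehicle 4 one of 0.57. With the mean log2 CPM of both fat lists as a covariate it was -0.04. That covariate contains these same genes, which removes their shared difference by construction, so the value says nothing of its stability. All 14 endothelial genes were positive, with a median of 0.21 that was 0.41 without vehicle 4, 0.10 without celecoxib 3 and 0.11 without rofecoxib 2. Whether lymphocytes in perivascular fat or blood bear on the Cd79a ranking was not tested.

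Genes of the vessel wall had medians near 0. For 14 smooth muscle genes the median log2 fold change was -0.06, with 3 positive and 11 negative, and Acta2 and Myh11 had values of -0.14 and -0.01. The 12 fibroblast genes had a median of 0.02, and 17 genes of leukotriene and prostanoid synthesis and reception a median of 0.04, with Ptgis, the prostacyclin synthase, at -0.13. Thymus genes had a median of 0.11 (-0.06 without vehicle 5 and 0.32 without vehicle 4), and glucocorticoid response genes one of 0.14 (-0.25 without celecoxib 1). Interferon response genes had a median of -0.07 (0.15 without celecoxib 4) and mesothelium genes one of -0.09 (0.04 without celecoxib 3). The clock median of 0.13 was 0.05 without vehicle 4, the proliferation median of 0.11 was 0.23 without vehicle 5, and the striated muscle median of -0.20 was -0.30 without celecoxib 1. The single tested cytotoxic cell gene, Il2rb, had a log2 fold change of 0.48. Across the 34 lists, 0 genes were called by edgeR's test.

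**Figure D4:**
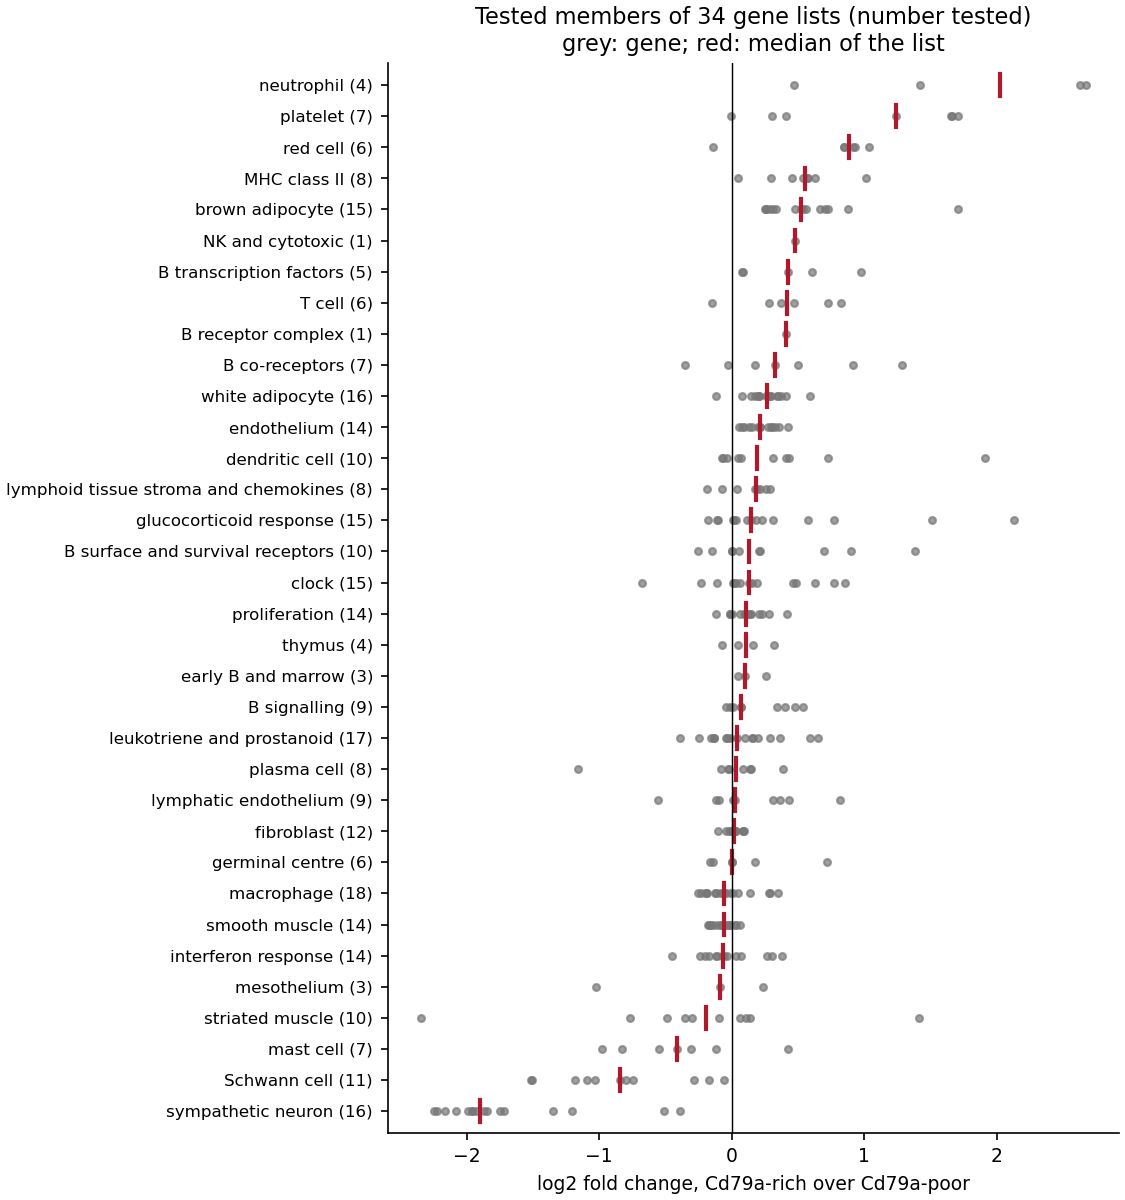
Log2 fold changes (x axis), Cd79a-rich over Cd79a-poor aortas, of the tested members of 34 gene lists, ordered by list median. Grey points are genes, red marks list medians, and the number tested is in brackets. The neutrophil median of 2.02 and the platelet median of 1.24 lie at the top, the sympathetic median of -1.90 at the bottom, and most lists lie near 0.

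On the low side, Rasl11b, a small Ras-like GTPase, had the smallest p among genes with a mean of at least 1 CPM, selected as above. It had 3048, 3269, 2333, 3890 and 2510 counts in Cd79a-rich aortas, against 4230, 4394, 4846, 4421 and 4023 in Cd79a-poor aortas. The sets did not overlap, with means of 97.2 ± 20.1 CPM in Cd79a-rich and 141.6 ± 9.80 CPM in Cd79a-poor aortas (SD, n = 5 each) and a log2 fold change of -0.55 ± 0.16 (SE, unadjusted p = 0.00432, adjusted p = 1.0, edgeR). With the sets ranked by Cd79b the log2 fold change was -0.19. Gem, another Ras-like GTPase, had 2006, 1698, 1459, 1872 and 1512 counts in Cd79a-rich aortas, against 1983, 2284, 2958, 2160 and 2315 in Cd79a-poor aortas. It had a log2 fold change of -0.46 ± 0.17 (SE).

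The other low genes differed by small steps in abundant transcripts. Asb1, an adaptor of ubiquitin ligases, and Rexo2, an exonuclease of short RNA in mitochondria, did not overlap between the sets, with log2 fold changes of -0.16 ± 0.05 and -0.17 ± 0.06 (SE). Asb1 had 987 to 1084 counts in Cd79a-rich aortas and 1091 to 1234 in Cd79a-poor aortas. Rdh11, a retinol dehydrogenase, had 779 to 836 counts in Cd79a-rich and 815 to 941 in Cd79a-poor aortas, which overlap. Lgals1, a galectin of smooth muscle and fibroblasts that was singled out after its values were seen, averaged 610.8 ± 13.4 CPM in Cd79a-rich and 703.5 ± 36.9 CPM in Cd79a-poor aortas (SD, n = 5 each), with no overlap.

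Cd79a levels were spread over all 3 treatments. Cd79a averaged 0.213 ± 0.106 CPM in celecoxib aortas and 0.220 ± 0.126 CPM in vehicle aortas (SD, n = 5 each, exact two-sided permutation p = 0.889, adjusted p = 0.889). It averaged 0.336 ± 0.189 CPM in rofecoxib aortas, against 0.220 ± 0.126 CPM in the same vehicle aortas (SD, n = 5 each, exact two-sided permutation p = 0.302, adjusted p = 0.452). Celecoxib against rofecoxib gave an exact two-sided permutation p of 0.238 (adjusted p = 0.452, over these 3 comparisons), and the smallest p this design can give is 0.00794. Each treatment had aortas in all 3 sets, and its range of counts overlapped those of the others.

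Over the B cell lists, 0 of the 32 tested genes were called for either compound by edgeR's test. Over all genes DESeq2 called 129 for celecoxib and 0 for rofecoxib, and limma-voom 0 for each. For celecoxib against vehicle, 12 were positive and 20 negative, with a median log2 fold change of -0.03 and 1 at an unadjusted p under 0.05, where 12.5% of all 15134 genes had such a p and 0% were called. For rofecoxib against vehicle, 15 were positive and 17 negative, with a median of -0.02 and 0 at an unadjusted p under 0.05, where 5.18% of all genes had such a p and 0% were called. Both comparisons use the same 5 vehicle aortas. At these counts, a change of B cell transcripts smaller than the spread between aortas would not be detectable at this depth.

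**Figure D5:**
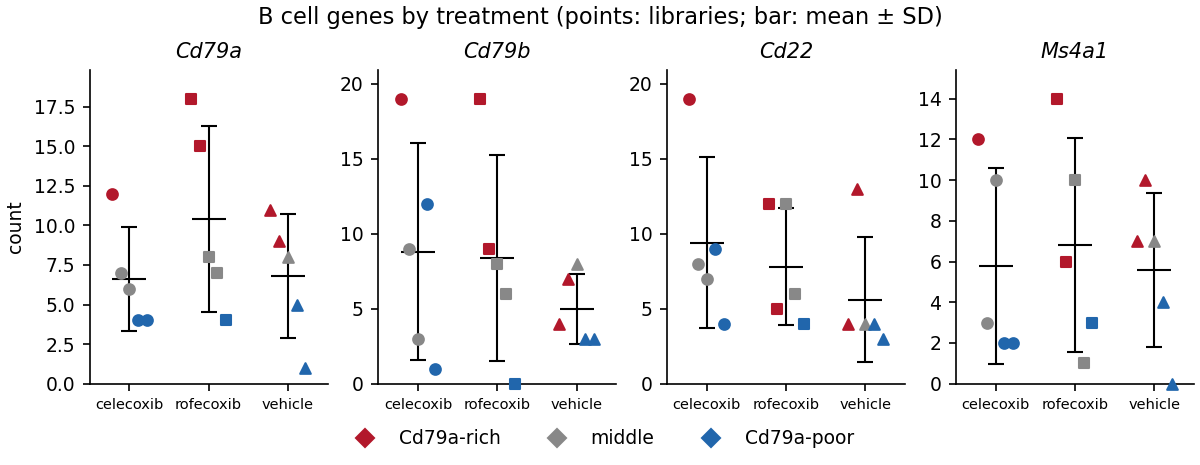
Counts of 4 B cell genes (y axes, linear) by treatment. Points are libraries, coloured by set, horizontal marks the mean and bars the SD (n = 5 each). Each treatment spans the sets: Cd79a had 4 to 12 counts in celecoxib, 4 to 18 in rofecoxib and 1 to 11 in vehicle aortas.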

How the data were processed

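Polyadenylated RNA of 15 thoracic aortas, 5 per treatment, was measured in 1 table of counts per gene (37681 rows), as the authors deposited it. CASAVA 1.8.2, STAR 2.5.2a and the mm9 build are named in the submitters' processing notes, while for the counting step and its use of strand nothing is stated there. Column totals lie within 30937046 to 30967115, so a common scaling before deposit is possible and the depth before it is unknown; all 37 mitochondrial rows hold 0.

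CPM is count over column total. The aortas, gene lists and tests were chosen with earlier results of these data known. The filterByExpr function (count of 10) of edgeR 4.0.16 kept 15134 genes, which hold 99.95% of the counts, and Cd79a is not among them. A robust quasi-likelihood fit on all 15 aortas, with TMM factors of 0.953 to 1.04 and the 3 sets as levels, was tested on simulated data and then gave Cd79a-rich minus Cd79a-poor, with Benjamini-Hochberg adjustment over all genes. Every unadjusted and adjusted p of a gene is from edgeR unless named otherwise. Celecoxib and rofecoxib were compared with vehicle in the same way. Named were B cell and plasma cell genes, the 5 genes of smallest p in each direction, and members of high level in other lists. Exceptions are stated beside them. Those 5 were taken among genes in no B cell list with a mean of at least 1 CPM over 15 aortas. Predicted genes, Rik clones and pseudogenes were left out. No 2 libraries of the same treatment agreed within sampling noise (smallest chi-square per gene 14.7 over 12505 genes). Alternatives covered other rankings, set sizes, filters, scalings, covariates, DESeq2 1.42.0, limma-voom (limma 3.58.1) and each library left out. P-values measure the spread between these libraries, each labelled as its own animal. Values of 2 B cell genes, and sets ranked by 1 of them, are not reported here.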

Additional observations from a re-analysis of the deposited data

Results flagged for a closer look

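Of 99 gene and set combinations checked with Dixon's criterion, 13 held an aorta far from the other 4 of its set. That criterion flags about 1 in 20 groups of normally distributed values. Low counts need not follow that spread, and genes such as S100a8 and S100a9 are related, so the 13 are a description only. Among Cd79a-rich aortas, celecoxib 1 stood apart for S100a8 (4.39 CPM) and S100a9 (5.81 CPM), both of neutrophils. Vehicle 1 stood apart for Mmp9 (5.24 CPM), a protease of neutrophils and vascular cells, and for Ear2 (8.27 CPM), a ribonuclease of eosinophils and macrophages. Rofecoxib 3 did so for Th (23.1 CPM) and Dbh (46.3 CPM) of noradrenaline synthesis, vehicle 5 for Ucp1 (980.1 CPM) of brown fat, and rofecoxib 1 for the mast cell protease Cpa3 (2.58 CPM) and for Parvg (1.03 CPM).

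Among Cd79a-poor aortas, vehicle 4 stood apart for Hbb-b1 (89.6 CPM) and celecoxib 4 for Cd22 (0.291 CPM) and Cd79b (0.388 CPM), so that 2 B cell genes were high in an aorta at the low end of Cd79a. Among rofecoxib aortas, rofecoxib 2 was low for Igkc (0.0646 CPM).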

How the results depend on the processing

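For Cd79a-rich against Cd79a-poor aortas, 0 genes were called under every alternative run, DESeq2 and limma-voom included. The number at an unadjusted p under 0.05, 225 in edgeR, was 238 by DESeq2, 204 by limma-voom, 348 and 869 with the sets ranked by Cd79b and Ms4a1, and 496, 405 and 415 without rofecoxib 3, vehicle 4 and vehicle 5. These rankings kept 3 of the 5 Cd79a-rich aortas and 4 of the 5 Cd79a-poor ones each. By Cd79b, 1 aorta passed from one of these sets to the other, and by Ms4a1 0 did. With the replicate number of the labels as a replicate block, 0 genes were called and 169 had an unadjusted p under 0.05. Only 6 of 15 same-numbered pairs correlated above 0.1 (from -0.72 to 0.76), in gene levels taken against treatment means. Such correlations cannot show whether aortas of the same number shared a preparation day, and the labels do not assign days. Whether the numbers pair the aortas is therefore unknown.

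Only part of the named genes was followed through the alternatives. Among those followed, signs turned for Ighm (-0.0099 ranked by Cd79b and -0.0015 as a slope on Cd79a) and for Cd74. The log2 fold change of Cd74 ran between -0.017 and 0.93 as single libraries were left out. List medians near 0 also changed sign when single libraries were left out: B signalling, plasma cell, germinal centre, thymus, lymphoid stroma, lymphatic endothelium, macrophage, proliferation, interferon, fibroblast, mesothelium, glucocorticoid, and leukotriene and prostanoid. Celecoxib against vehicle gave 129 calls by DESeq2, against 0 in edgeR and limma-voom and 0 to 8 as single libraries were left out (8 without celecoxib 4, 2 without vehicle 2, 1 without celecoxib 5); the cause was not tested. Counts of 1 to 18 limit the ranking itself.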
